A study of Mus musculus with 4 samples.

Results

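A set of 10 genes that mark macrophages, monocytes and dendritic cells was followed in kidneys of mice with experimental membranous nephropathy (MN), where immune complexes of antigen and antibody collect on the outer side of the glomerular filter. They were chosen by name as Ms4a7, Itgam, Itgax, Csf1r, Cd68, Mrc1, Cd163, Lyz2, Aif1 and Adgre1 (listed in part of the files under its older name Emr1), with every probe that carries one of these names. The 10 genes, of 34607 names on the array, had 16 of the 55681 non-control probes. The data were 4 one-colour Agilent arrays of whole-kidney RNA from female BALB/C mice, 2 from the MN group and 2 from the control group. All mice were 6 weeks old when the work began and all were primed with 0.2 mg of cationic bovine serum albumin (cBSA) in complete Freund's adjuvant. Starting 2 weeks later, MN mice were given cBSA intravenously (13 mg/kg, 3 times a week, 6 weeks), and control mice were given saline on that schedule (the labels also call it PBS). The groups thus shared the priming and the adjuvant and differed in the intravenous antigen. Whether the arrays stand for different animals is not given in the labels. The p-values therefore describe no more than the variation among these 4 samples, which may be technical, and 2 arrays per group limit the precision of every value.

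Macrophages and dendritic cells form a network between the kidney tubules and around the glomeruli, where they sample the surrounding fluid, take up debris and present antigen. Macrophages depend on signals through the colony stimulating factor 1 receptor (CSF1R), which binds the ligands CSF1 and IL-34. Beta 2 integrins such as CD11b (Itgam) and CD11c (Itgax) let these cells adhere and take up opsonized particles, while scavenger and lectin receptors such as CD206 (Mrc1) and CD163 clear glycoproteins and hemoglobin. In whole-kidney RNA a change in the number of such cells and a change in RNA per cell cannot be told apart.

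Levels below are log2 of the processed signal relative to the 75th percentile of the non-control spots of the same array, and differences are MN minus control. The arrays numbered 1 in the MN and control groups shared a slide, and so did those numbered 2, so a difference can also be read within each slide. Between 63.1% and 64.0% of non-control spots were well above background on the MN arrays, against 65.9% and 79.5% on the control arrays, and 0 spots were saturated. Probes well above background on both MN arrays or on both control arrays were tested. This left 14 of the 16 probes and 9 of the 10 genes, each tested gene being well above background on all 4 arrays. Defining genes of the kidney were measured, with all 6 podocyte and all 8 proximal tubule genes of the marker lists tested.

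No member passed the test. By limma with Benjamini-Hochberg adjustment over 25296 genes, 0 of the 9 tested members differed between MN and control kidneys, and their adjusted p-values ran from 0.396 to 0.9999. Of all genes, 0.0198% were called higher in MN and 0% lower at the same threshold of 0.05. At an unadjusted p under 0.05, 2 members were higher in MN, Ms4a7 and Mrc1, and 0 were lower, while 3.54% of all genes were higher and 3.5% lower. The median difference of the 9 members was 0.12, against -0.05 over all genes tested. Within slides the member medians were 0.23 and 0.09, against -0.02 and -0.08 over all genes. Both MN arrays lay above both control arrays for 4 members (Itgam, Ms4a7, Mrc1 and Adgre1), an arrangement found in 13.2% of all genes. They lay below both control arrays for 1 member, Csf1r, an arrangement found in 19.8% of all genes. The remaining 4 overlapped between groups. With the slide as a block in the limma fit, 0 members and 0% of all genes passed the adjusted threshold. Itgam, Ms4a7 and Mrc1 were then higher at an unadjusted p under 0.05 and 0 members were lower, while 6.28% of all genes were higher and 9.05% lower.

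**Figure D1:**
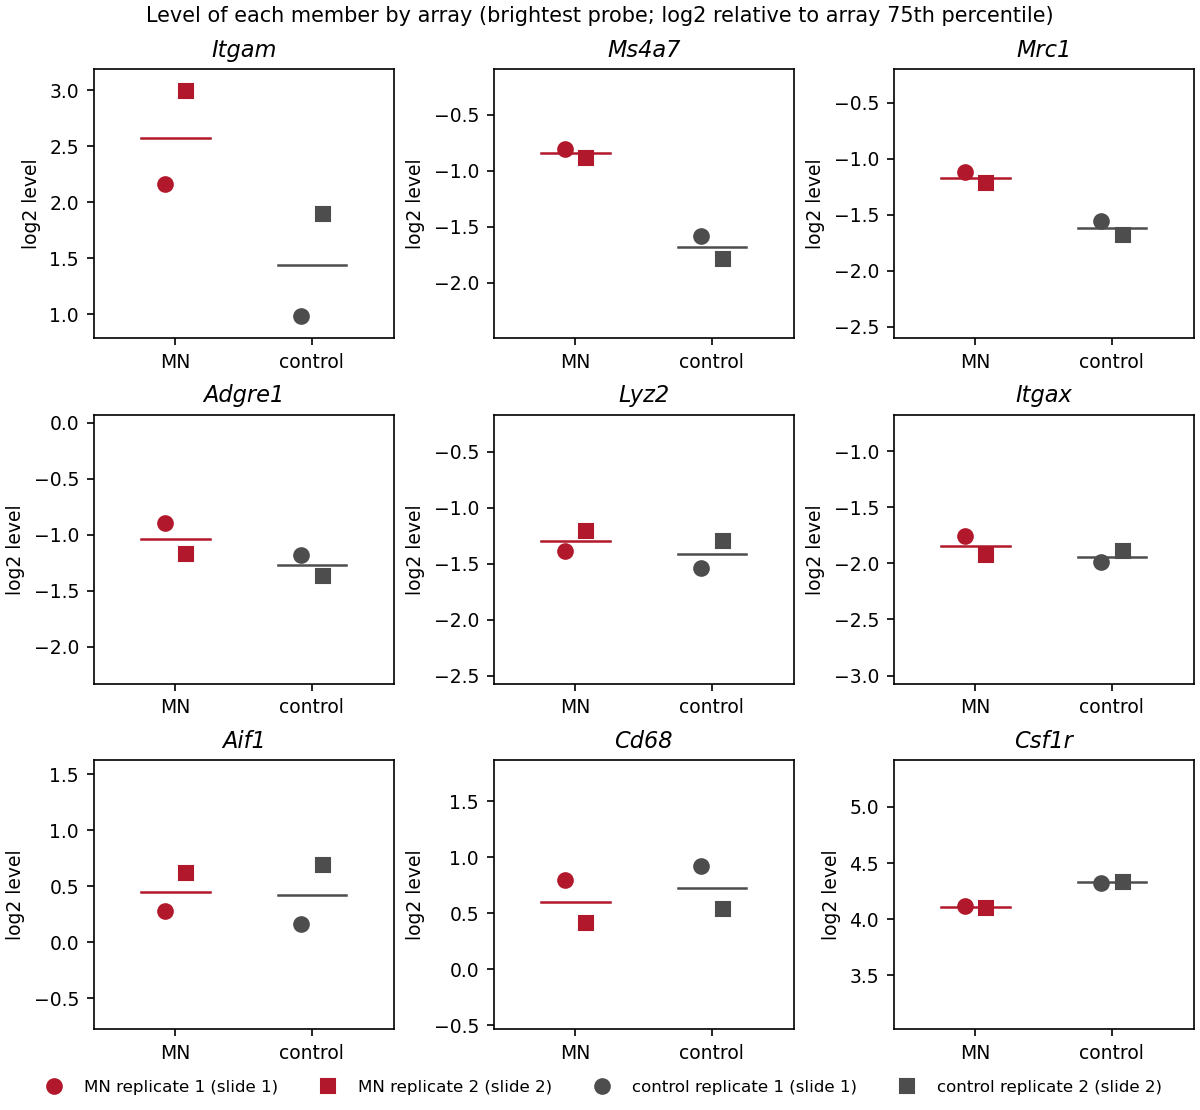
Log2 level of the brightest probe of each of the 9 tested members, relative to the array's 75th percentile. MN arrays are on the left in red and control arrays on the right in grey, circles are replicate 1 and squares replicate 2, and bars are group means; each panel spans the same range of log2 units. Ms4a7, Mrc1 and Itgam show both MN arrays above both control arrays, Csf1r shows them below, Adgre1 shows groups that touch, and Itgax, Lyz2, Aif1 and Cd68 overlap.

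Itgam, the alpha subunit of complement receptor 3 on monocytes, macrophages and neutrophils, was the member whose reading depended most on the probe. Its 3 probes lie on the plus strand of chromosome 7 (mm9): A_55_P1977926 at chr7:135212140-135212199, A_55_P1977929 at chr7:135260275-135260334 and A_55_P1977934 at chr7:135261755-135261814. Their sequences are shown because the probes disagree; the whole 60-base probe is given for the first 2 and the 30 bases around the repeat for the last, and capitals mark an uninterrupted CA run.
Itgam probe A_55_P1977926: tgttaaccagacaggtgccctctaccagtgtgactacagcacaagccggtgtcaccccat
Itgam probe A_55_P1977929: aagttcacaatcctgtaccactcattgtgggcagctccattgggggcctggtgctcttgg
Itgam probe A_55_P1977934: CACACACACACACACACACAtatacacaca
The last of these holds a CA run of 20 bases. No other member probe had a CA or TG run longer than 4 bases.

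The repeat-bearing probe was the brightest for Itgam and therefore represented the gene. Its levels were 2.16 and 2.99 on the MN arrays, against 0.98 and 1.90 on the control arrays. Both MN arrays were above both controls, with a difference of 1.13 ± 0.46 (SE, n = 2 per group) and within-slide differences of 1.18 and 1.09. It did not pass the limma test (adjusted p = 0.772). The difference was 0.68 without control replicate 1, 1.59 without control replicate 2, 1.55 without MN replicate 1 and 0.72 without MN replicate 2, and the mean over the 3 probes gave 0.25. The A_55_P1977926 probe had levels of -2.86 and -2.18 in MN, against -2.75 and -1.87 in control, a difference of -0.21 ± 0.41. The A_55_P1977929 probe had levels of -3.55 and -2.65 in MN, against -3.22 and -2.61 in control, a difference of -0.19 ± 0.41. Both of these probes overlapped between groups and were lower in MN on both slides. The 3 differences spanned 1.34 log2 units, a wider span than in 95.4% of the 2229 genes with at least 3 tested probes, whose median span was 0.35.

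Other probes on the array with such a repeat were also higher in MN. Of the 34 probes with a CA run of at least 16 bases, all tested, 34 had a difference above 0, against 37.8% of all 36262 tested probes. Their median difference was 1.06 with the Itgam probe and 1.05 over the 33 others, and within slides it was 1.15 and 0.92. Both MN arrays lay above both control arrays for 29 of them (85.3%), against 12.8% of all tested probes. The median level of the 34 probes was 2.00 and 2.37 on the MN arrays, against 0.80 and 1.44 on the control arrays. Probes with a TG run of at least 16 bases, the complementary repeat, had the opposite sign. Of 71 such probes 0 had a difference above 0, the median was -0.96, and within slides it was -0.85 and -1.06. By limma 0 probes of either kind passed the adjusted threshold, which 0.0193% of all tested probes passed as higher and 0% as lower. At an unadjusted limma p under 0.05, 22 of the 34 CA probes were higher and 51 of the 71 TG probes were lower. Of all tested probes, 3.45% were higher and 3.53% lower at that threshold. These repeats were looked at after the Itgam values had been seen, and the part of the repeat in the Itgam difference was not tested. With probes that hold a CA or TG run of at least 12 bases left out, Itgam was represented by A_55_P1977926 at -0.21. In that fit 3 members had both MN arrays above both controls, against 13.2% of all genes.

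**Figure D2:**
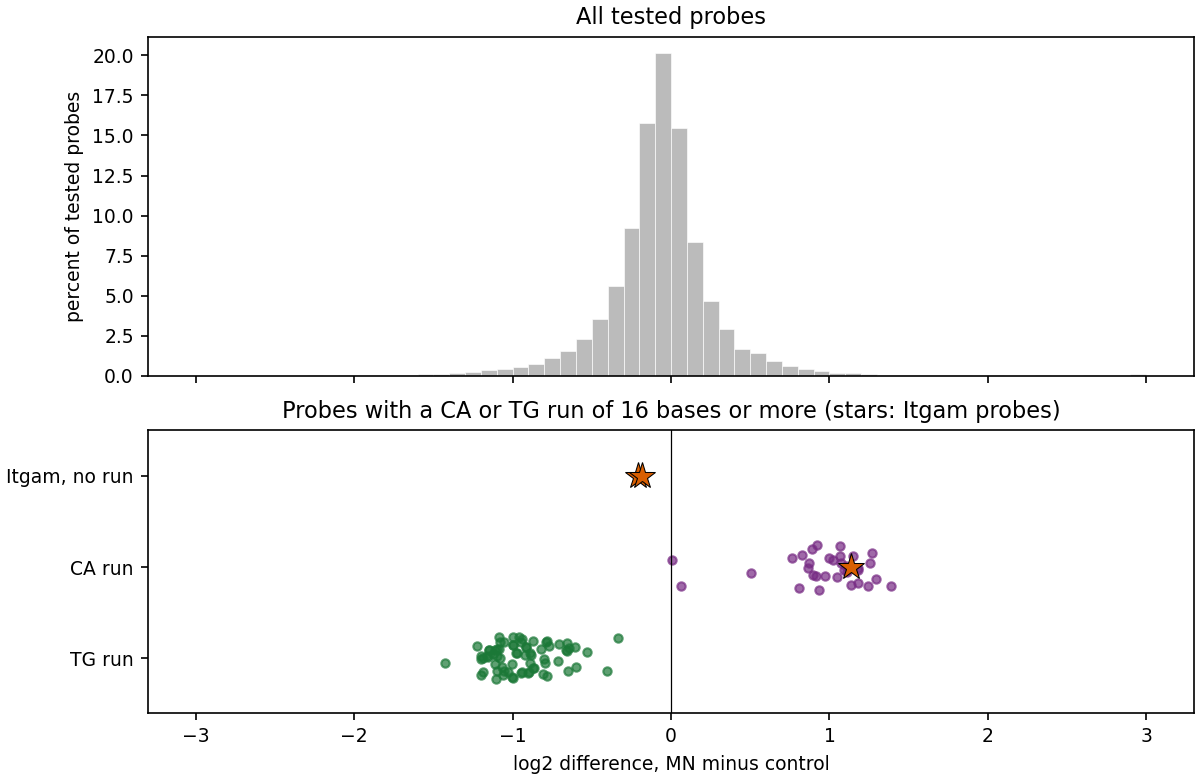
Log2 differences, MN minus control, of all tested probes (top, percent of probes in each bin) and of probes with a CA or TG run of at least 16 bases (bottom, 1 point per probe, spread vertically for legibility). The outermost bins hold probes beyond the axis. Stars are the 3 Itgam probes: the one with a CA run sits at 1.13 among the other CA probes (median 1.05), and the pair without a run sits at -0.21 and -0.19.

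The other beta 2 integrin among the members, Itgax, is the alpha subunit CD11c, used as a marker of dendritic cells and of many kidney macrophages. Its probe lies at chr7:135294052-135294111 on the plus strand (mm9). Its levels were -1.76 and -1.93 in MN, against -1.99 and -1.89 in control. The groups overlapped, the within-slide differences had opposite signs (0.23 and -0.03), and the difference was 0.10 ± 0.15 (limma adjusted p = 0.9999). The list of beta 2 integrins and partners, which includes Itgam and Itgax, had 15 tested genes. Of these 0 passed the adjusted threshold, and the median was -0.00. Both MN arrays lay above both controls for 4 and below for 3, against 13.2% and 19.8% of all genes. Those above were Itgam, through its repeat-bearing probe, and genes of fibrinogen chains. Itgb2, the common beta subunit that pairs with both members, was at -0.91 and -1.15 in MN, against -1.15 and -0.88 in control, and overlapped (-0.02 ± 0.18). Itgal, the CD11a subunit, was at -2.14 and -2.21 in MN, against -2.11 and 2.17 in control. Its brightest-probe difference of -2.21 rested on control replicate 2: the difference within slide 1 was -0.03, and the 3 probes of the gene ran from -2.21 to 0.02. Fgb, the fibrinogen beta chain and part of a ligand of complement receptor 3, was at -3.64 and -3.36 in MN, against -4.90 and -4.99 in control, a difference of 1.44 ± 0.17 (limma adjusted p = 0.280) that was 0.57 with normexp background correction. Itgad was on the array and was not tested.

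Csf1r, the receptor that macrophages need for survival, lay below control on both MN arrays with its brightest probe, at 4.11 and 4.10 against 4.32 and 4.33 in control. The difference was -0.22 ± 0.13 (limma adjusted p = 0.936), with -0.21 and -0.23 within slides. A further probe (A_52_P602091) was at -1.05 and -1.09 in MN, against -0.64 and -0.80 in control, and its groups did not overlap either (difference -0.36 ± 0.15, limma unadjusted p = 0.0753). The remaining probe (A_55_P2025073) was at -0.22 and -0.22 in MN, against -0.29 and 0.02 in control, and overlapped (-0.09 ± 0.18). The 3 probes spanned 0.27 log2 units. Over the 14 tested member probes, 4 had both MN arrays above both controls, against 12.8% of all tested probes, and 2 had them below, against 20.6%.

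Of the 16 tested genes in the list of the CSF1 receptor axis, 0 passed the adjusted threshold, and the median was 0.02. Both MN arrays lay above both controls for 4 and below for 3, against 13.2% and 19.8% of all genes. Il34, the CSF1R ligand made by kidney tubule cells, was at 0.77 and 0.74 in MN, against 0.50 and 0.28 in control, a separation of 0.36 ± 0.15 (limma adjusted p = 0.795). Csf1, the other ligand, overlapped between groups (0.20 ± 0.20), and its 3 probes ran from 0.20 to 0.44. Csf3r, the receptor for granulocyte colony stimulating factor that is also in the neutrophil list, differed by 0.38 ± 0.18 and Cebpa, a myeloid transcription factor also made by other cells, by -0.45 ± 0.20. Spi1, which encodes the myeloid factor PU.1, was well above background on 3 arrays and overlapped (-0.38 ± 0.43, and -0.15 with quantile normalization).

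Ms4a7, a four-pass membrane protein of the MS4A family made by macrophages, had the smallest p-value of the members. Its probe lies at chr19:11395903-11395962 on the minus strand (mm9). Its levels were -0.81 and -0.88 in MN, against -1.58 and -1.79 in control. Both MN arrays were above both controls, the difference was 0.84 ± 0.15 (SE, n = 2 per group; 1.79-fold), and within slides it was 0.78 and 0.90. The limma test gave an unadjusted p of 0.0053 and an adjusted p of 0.396. Adgre1, the F4/80 antigen used to identify mouse macrophages, has 2 probes on chromosome 17. The brighter one (chr17:57622868-57622927, plus strand, mm9) was at -0.89 and -1.18 in MN, against -1.18 and -1.37 in control, so that the groups touched at the second decimal and the difference was 0.24 ± 0.18 (limma adjusted p = 0.9999). That difference was 0.143 with normexp and 0.13 with the mean over both probes; it was 0.097 without MN replicate 1, 0.143 without control replicate 2 and 0.38 without MN replicate 2. The other (chr17:57620350-57620409, plus strand, mm9) overlapped, at -1.27 and -1.37 in MN against -1.24 and -1.44 in control, with a difference of 0.02 ± 0.16.

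Of the 18 MS4A family genes in the list, 9 were tested and 0 passed the adjusted threshold. The limma count at an unadjusted p under 0.05 was 2 higher in MN, the member Ms4a7 itself and Ms4a6d, and 2 lower. Over all genes 3.54% were higher and 3.5% lower at that threshold. Both MN arrays lay above both controls for 3 and below for 5, against 13.2% and 19.8% of all genes, and the median of the list was -0.06. Ms4a6d, another family member of macrophages, was at -2.81 and -2.67 in MN, against -3.40 and -3.43 in control, and the groups did not overlap. Its difference was 0.68 ± 0.14 (limma adjusted p = 0.442) and was 0.33 with normexp background correction. The 2 genes of the family lower at that unadjusted threshold were Ms4a1, the B cell antigen CD20, at -0.60 ± 0.15, and Ms4a4c at -0.90 ± 0.30. The brightest probe of Ms4a4c lies at chr19:11500839-11500898 on the plus strand (mm9) and holds a TG run of 28 bases, and the probe of Ms4a5 (chr19:11348455-11348514, minus strand, mm9) holds a CA run of 16 bases. They are shown because they are companions of Ms4a7 with a run, in capitals, of the kind seen in the Itgam probe.
Ms4a4c probe: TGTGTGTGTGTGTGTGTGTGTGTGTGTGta
Ms4a5 probe: caccttggtgtaatCACACACACACACACA
The 3 Ms4a4c probes ran from -0.90 to -0.26. Ms4a5 was one of the CA probes with a small difference (0.06 ± 0.29) and its groups overlapped. Ms4a4a was not tested.

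Mrc1, the mannose receptor CD206 of macrophages and of sinusoidal endothelium, was the other member with an unadjusted p under 0.05. Its probe lies at chr2:14253273-14253332 on the plus strand (mm9). Its levels were -1.12 and -1.22 in MN, against -1.56 and -1.68 in control. Both MN arrays were above both controls, with a difference of 0.45 ± 0.14 (1.37-fold), 0.44 and 0.46 within slides, and limma p-values of 0.0342 unadjusted and 0.627 adjusted. Genes of lymphatic and sinusoidal endothelium, cells that also express Mrc1, were measured beside it. Of 6 such genes (Lyve1, Prox1, Pdpn, Flt4, Stab1 and Stab2), 3 had both MN arrays above both controls and 1 below, against 13.2% and 19.8% of all genes. Their summed level (log2 of the summed linear values) was 3.08 and 3.07 in MN, against 2.82 and 2.74 in control. Lyve1 adds little to that sum, at -4.41 and -5.08 in MN, against -5.00 and -4.85 in control. It was well above background on 3 arrays and overlapped between groups (0.18 ± 0.28). Their part in the Mrc1 difference was not tested.

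Cd163, the receptor of macrophages for hemoglobin bound to haptoglobin, was not well above background on any array. Its probe (chr6:124270436-124270495, plus strand, mm9) gave processed signals of 5.38 and 10.1 in MN, against 4.48 and 2.81 in control. The lowest processed signal counted as well above background was 23.9 and 38.9 on the MN arrays, against 17.1 and 12.4 on the control arrays. No fold change is given for it. Of 8 tested genes around hemoglobin clearance, 0 passed the adjusted threshold. Both MN arrays lay above both controls for 4 and below for 0, against 13.2% and 19.8% of all genes. Hp, the haptoglobin that CD163 recognises, was at -1.57 and -1.85 in MN, against -2.50 and -2.56 in control, and the groups did not overlap (0.82 ± 0.17, limma adjusted p = 0.433, and 0.54 with normexp). Lrp1, the receptor for hemopexin, had a difference of 0.44 ± 0.13 from its brightest probe and -0.42 from its other one. Hmox1, which breaks down heme, was at 0.27 ± 0.14, with -0.12 from its other probe.

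Cd68, a lysosomal glycoprotein of macrophages, was at 0.80 and 0.41 in MN, against 0.92 and 0.54 in control, with its probe at chr11:69477775-69477834 on the minus strand (mm9). The groups overlapped, the difference was -0.12 ± 0.23, and both slides gave -0.12 or -0.13. A second Cd68 probe was well above background on 1 control array only and was not tested. Lyz2, lysozyme M of monocytes, macrophages and neutrophils (chr10:116719175-116719234, minus strand, mm9), was at -1.39 and -1.21 in MN, against -1.54 and -1.30 in control. Its groups also overlapped, with a difference of 0.12 ± 0.17. Aif1, the calcium-binding protein IBA1 of activated macrophages (chr17:35307959-35308018, minus strand, mm9), was at 0.28 and 0.62 in MN, against 0.16 and 0.69 in control. In Aif1 the 2 arrays of slide 2 were higher than the 2 of slide 1, the groups overlapped, and the difference was 0.03 ± 0.26. Among 13 tested genes of lysosome and phagocytosis, 0 passed the adjusted threshold and the median was 0.04.

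**Figure D3:**
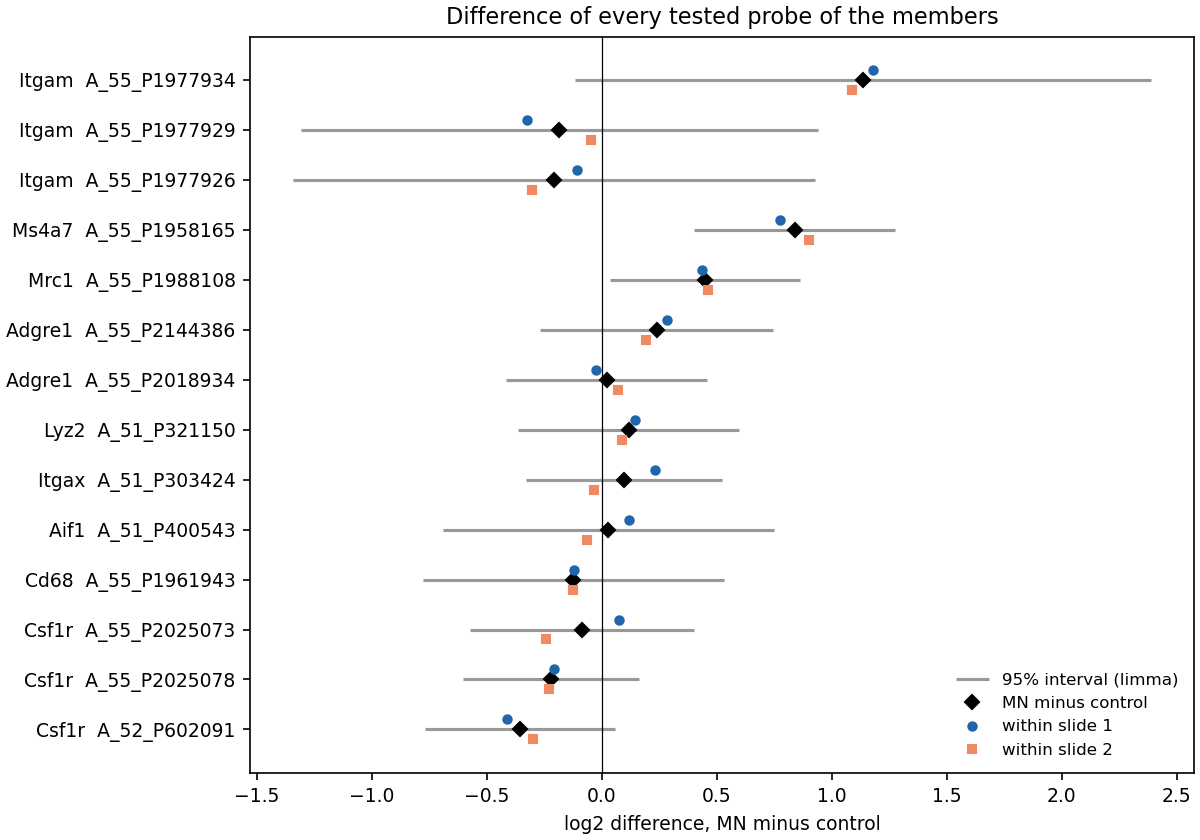
Log2 difference, MN minus control, of each of the 14 tested probes of the members, with the 95% interval from limma (grey line), the difference over both slides (black diamond) and the differences within slide 1 (blue circle) and slide 2 (orange square). The intervals of the Ms4a7 and Mrc1 probes lie above 0, and all others include 0. The 3 Itgam probes are at 1.13, -0.19 and -0.21.

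Other genes of the same cells were set beside the members. In the list of monocyte and macrophage genes 27 of 31 on the array were tested, with 0 past the adjusted threshold by limma. At an unadjusted p under 0.05, 3 were higher in MN and 0 lower, against 3.54% higher and 3.5% lower over all genes tested. Both MN arrays were above both controls for 10 and below for 0, against 13.2% above and 19.8% below over all genes. The median was 0.15, against -0.05 over all genes. The 3 genes were Ms4a6d, Trem2 and Siglec1. Trem2, a lipid-sensing receptor of macrophages, was at -1.95 and -1.99 in MN, against -2.67 and -2.61 in control. Its difference of 0.67 ± 0.13 (limma adjusted p = 0.429) was 0.35 with normexp. Siglec1, the sialic acid receptor CD169 of resident macrophages, was at -1.99 and -2.18 in MN, against -2.56 and -2.70 in control. Its difference of 0.54 ± 0.16 (limma adjusted p = 0.584) was 0.35 with normexp. For both genes the MN arrays were above the control arrays on each slide. Cx3cr1 and Ccr2, chemokine receptors of monocytes, overlapped between groups at 0.24 ± 0.22 and -0.00 ± 0.14. Msr1, Timd4, Gpnmb and Ms4a4a were on the array and not tested. The summed level of the tested genes was 6.24 and 6.31 in MN, against 6.16 and 6.08 in control. Its largest terms were Cd74 and Lgals3. Cd74 was at 4.97 and 5.24 in MN, against 4.93 and 4.92 in control. Lgals3 was at 3.86 and 3.81 in MN, against 3.77 and 3.69 in control.

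In the dendritic cell list, 15 of 17 genes were tested and 0 passed the adjusted threshold. At an unadjusted limma p under 0.05, 1 was higher in MN and 3 lower, against 3.54% and 3.5% of all genes. Both MN arrays were above both controls for 2 and below for 7, against 13.2% above and 19.8% below over all genes, and the median was -0.19. Those above were Clec9a (0.27 ± 0.18, and 0.08 with normexp) and Clec10a. Those below were Flt3, Zbtb46, Cd209a, Ccr7, Irf8, Id2 and Fscn1. In whole-kidney RNA such transcripts can also come from other cells. Cd209a, a C-type lectin of dendritic cells, was at -4.21 and -4.47 in MN, against -3.50 and -3.50 in control (difference -0.84 ± 0.16, limma adjusted p = 0.420, and -0.49 with normexp). Zbtb46, a transcription factor of classical dendritic cells, was at -3.28 and -3.49 in MN, against -2.95 and -2.42 in control. The Zbtb46 groups did not overlap in that probe (-0.70 ± 0.24, and -0.43 with normexp), with -0.33 and -1.07 within slides, while its other probe gave -0.04. Clec10a, a lectin of macrophages and dendritic cells, had the opposite sign, at -2.72 and -2.995 in MN, against -3.64 and -3.26 in control (0.59 ± 0.21, limma adjusted p = 0.710, and 0.33 with normexp). Itgae and Xcr1 were not tested.

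**Figure D4:**
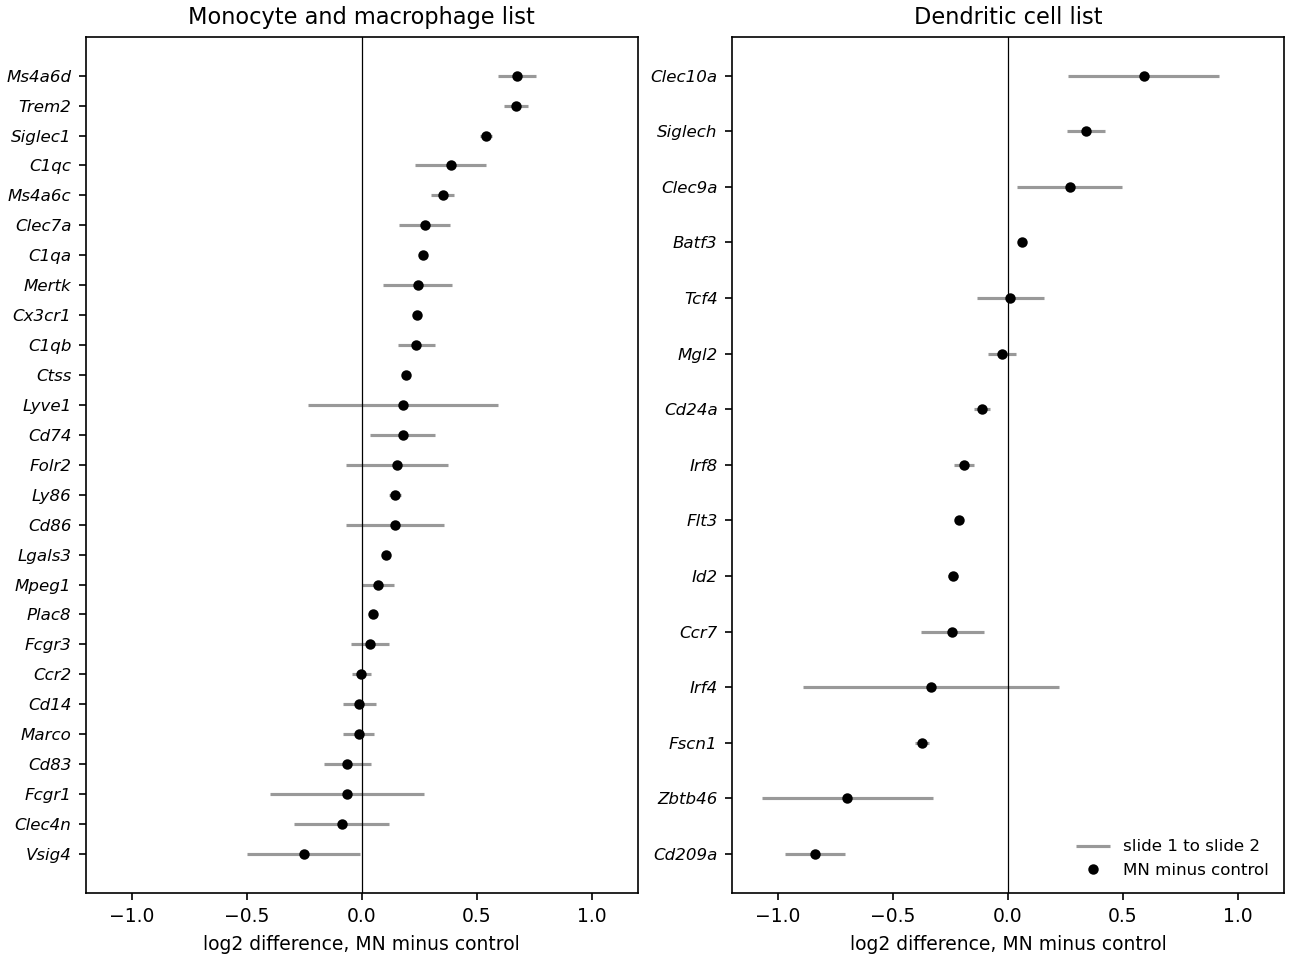
Log2 difference, MN minus control, of the tested genes of the monocyte and macrophage list (left, 27 genes) and of the dendritic cell list (right, 15 genes), from the brightest probe of each gene. Points are the difference over both slides and lines join the differences within slide 1 and slide 2. Ms4a6d (0.68), Trem2 (0.67) and Siglec1 (0.54) are at the top on the left, and Zbtb46 (-0.70) and Cd209a (-0.84) are at the bottom on the right.

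Chemokines that attract monocytes were followed as a further list. Of 10 tested, 0 passed the adjusted threshold by limma. At the unadjusted threshold 4 were higher in MN and 0 lower, against 3.54% and 3.5% of all genes. Both MN arrays lay above both controls for 5 and below for 1, against 13.2% and 19.8% of all genes. Ccl8 was at -1.84 and -1.76 in MN, against -3.33 and -3.52 in control (1.63 ± 0.15, limma adjusted p = 0.192, and 1.08 with normexp). Ccl12 differed by 0.81 ± 0.22 (0.41 with normexp) and Ccl9 by 0.61 ± 0.16. Among 11 tested genes of alternative activation, 2 were higher at the unadjusted threshold, Retnla and Clec10a, and the median was -0.03. Retnla, a secreted protein of alternatively activated macrophages that adipose tissue and airway also make, was at -1.10 and -1.26 in MN, against -2.89 and -3.09 in control. The Retnla groups did not overlap and differed by 1.81 ± 0.16 (limma adjusted p = 0.174). In the list of classical activation 6 of 12 were tested. Cd80, a costimulatory ligand, differed by 0.51 ± 0.17 (0.32 with normexp). Nos2, inducible nitric oxide synthase, overlapped between groups at -0.28 ± 0.61. Tnf, Il1a, Il6, Il12a, Il12b and Ptgs2 were not tested. Over all 120 tested companion genes that are not members, 34 (28.3%) had both MN arrays above both controls and 21 (17.5%) below, against 13.2% above and 19.8% below over all genes tested. Their median was 0.03, against -0.05 over all genes.

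Markers of other cells in the same RNA were measured to set beside these values. For each list the counts are of genes with both MN arrays above, or below, both controls. Over all genes tested these shares were 13.2% above and 19.8% below. Pan-leukocyte genes had 1 of 8 above and 1 of 8 below, with a median of -0.02 and summed levels of 3.88 and 3.96 in MN, against 3.94 and 3.91 in control. Ptprc, the common leukocyte antigen CD45, differed by -0.09 ± 0.13. Neutrophils also express Lyz2 and Itgam, and their marker genes had 6 of 8 above and 0 below, with a median of 0.55. The summed levels of these genes were 6.00 and 6.13 in MN, against 5.50 and 5.85 in control. Csf3r made up most of that sum, at 5.88 and 5.99 in MN, against 5.38 and 5.73 in control. S100a8 was at -0.91 and -1.06 in MN, against -2.52 and -2.44 in control (1.49 ± 0.14, limma adjusted p = 0.202), and S100a9 and Ltf differed by 0.93 and 0.81 (Ltf by 0.43 with normexp). The neutrophil genes Mpo, Cxcr2, Ngp and Mmp8 were not tested. Genes of T and NK cells had 0 of 12 above and 5 below, and B cell genes had 0 of 9 above and 3 below. Podocyte genes had 5 of 6 above and 0 below, plasma cell genes 4 of 7 above and 1 below, mast cell and basophil genes 2 of 4 above and 0 below, and erythroid genes 4 of 6 above and 2 below. Endothelial genes had 2 of 8 above and 1 below, proximal tubule genes 0 of 8 above and 2 below, and genes of the loop, distal tubule and collecting duct 0 of 6 above and 1 below. Adipocyte genes had 5 of 8 above and 1 below, and 2 of them, Adipoq and Cfd, were the genes of these lists past the adjusted threshold (limma adjusted p = 0.0461 for both). With the slide as a block their adjusted p was 0.0569, and 0 genes of the array passed with the block, without the filter, with the filter on all 4 arrays or with any 1 array left out. Hemgn, an erythroid gene, had a difference of -0.96 from a probe with a TG run of 34 bases. The part of these cells in the member differences was not tested.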

How the data were processed

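Cy3-labelled whole-kidney RNA was hybridized to 1-colour Agilent arrays, 1 sample each (2 MN, 2 control). The deposited scanner files give a linear fluorescence intensity for each spot. Background subtraction, spatial and multiplicative detrending and surrogate values for spots near background came from Agilent Feature Extraction 10.5.1.1, per the file headers, which place probes on mm9. The deposited series table holds log2 values, not otherwise described in the sources used here. Compared with the scanner files over 55663 probes, it matched log2 scaled signal minus the control mean with replicates 1 and 2 exchanged in both groups (correlation 1 after rounding), and column medians of -0.03 and -0.04 for MN and 0.03 and -0.03 for control. It was used as an alternative only, and which replicate order is right is unknown.

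Spots flagged as non-uniform or outlying, and control spots, were dropped, and replicate spots averaged. Values are log2 of the processed signal minus the array's 75th percentile. A gene was represented by its probe with the highest mean over the 4 arrays. Probes were named through their accession (28026), symbol (3418) or synonym (295) in a RefSeq gene table of assembly GRCm38.p6, and otherwise by the file (23942). The two-sided test was the moderated fit of limma 3.58.1 (R 4.3.3; residual df 2, prior df 1.99), adjusted by Benjamini-Hochberg over all genes tested at a threshold of 0.05. The script was tested on simulated data. Python 3.11.15 with matplotlib 3.10.9, numpy 2.4.6 and pandas 2.3.3 drew the figures. Probe sequences are those of the deposited scanner files.

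The replicate number is also the slide and the scan in the file headers, which makes a slide block a replicate block. Arrays with the same number deviated together (correlation 0.626 over 25296 genes). The labels do not say what a number shares beyond the slide and scan, and the main fit was set without a block. Its standard errors therefore include the shift between slides. For Itgam the SE was 0.46 without the block and 0.10 with it, and the limma adjusted p was 0.772 and 0.169. Alternatives were the series table, median or quantile scaling, normexp (offset 50), no filter or a stricter one, the mean over a gene's probes, an intensity trend, the block and each array left out. The members, lists and tests were chosen with earlier results of these data known. Named genes are all members, up to 3 genes per list with the largest absolute difference and well above background on all 4 arrays, those past the threshold, and Itgb2, Itgal, Itgad, Csf1, Il34, Spi1, Cx3cr1, Ccr2, Ptprc, Ms4a6d, Ms4a4a and Hp. Ms4a5, Ms4a1, Cd74, Lgals3, Clec9a, Flt3, Ccr7, Irf8, Id2, Fscn1, the lymphatic and sinusoidal endothelial genes and untested genes were named after their values were seen.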

Additional observations from a re-analysis of the deposited data

How the results depend on the processing

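No member passed the adjusted threshold under any of the 14 alternatives, and 0 companion genes did. Ms4a7 stayed between 0.66 and 0.94 (lowest limma adjusted p 0.173) and Mrc1 between 0.32 and 0.51 (lowest adjusted p 0.230). With the slide as a replicate block the member median was 0.12, and 4 members lay above and 1 below, against 13.2% and 19.8% of all genes. In that fit 0 members (smallest limma adjusted p 0.169) and 0 of all genes passed the adjusted threshold. Itgam there joined Ms4a7 and Mrc1 at an unadjusted limma p under 0.05. All-gene calls numbered 5 in the fit reported, 15 with normexp, 17 with quantile, 11 with median scaling, 16 with an intensity trend, 7 each with the mean over probes and the series table, and 5 without probes that hold a run. They numbered 0 with the block, with no filter, with the filter on all 4 arrays and with each array left out. Both MN arrays lay above both controls for 2 members with the mean over a gene's probes, 3 with normexp, 3 with the series table and 5 with no filter. With normexp Lyz2 was 0.071 and Cd68 -0.06. Itgam was -0.21 without the probes that hold a CA or TG run, an alternative chosen after the data were seen. In it the member median was 0.097, and 3 members lay above and 1 below, against 13.2% and 19.6% of all genes. Leaving out 1 array at a time, the members above numbered 4 to 7 and those below 1 to 2. Of all genes, 24.1% to 33.0% then lay above and 36.0% to 46.6% below. The 7 members above came without control replicate 2, where 33.0% of all genes lay above. Over these fits the member median ran from 0.068 to 0.236, the highest without control replicate 2. In those fits Itgam (A_55_P1977934) ran from 0.68 to 1.59, Adgre1 (A_55_P2144386) from 0.097 to 0.38, Itgax from 0.014 to 0.18, Cd68 (A_55_P1961943) from -0.319 to 0.072, Aif1 from -0.24 to 0.29 and Lyz2 (A_51_P321150) from -0.0029 to 0.24. Single probes ran from -0.076 to 0.12 (Adgre1, A_55_P2018934), -0.24 to 0.071 (Csf1r, A_55_P2025073), -0.643 to 0.228 (Itgam, A_55_P1977926) and -0.6345 to 0.264 (Itgam, A_55_P1977929).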
